A study of Mus musculus with 15 samples.

Results

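The circadian clock genes described here are 10 genes chosen by symbol: Per1, Per2, Per3, Cry1, Cry2, Clock, Nr1d1, Nr1d2, Dbp and Ciart. All 10 were found among the 54532 genes of the count table, and all 10 were among the 18052 genes with enough counts to test. Poly-A RNA had been sequenced from the basal ganglia on the operated side of 15 wild-type mice, with 1 library per mouse and 5 mice per group, after perfusion with saline. Sham mice had surgery without haemorrhage, and ICH mice had an intracerebral haemorrhage. Both received distilled water by gavage. NYKD mice had the same haemorrhage and were given Nao Yi Kang decoction the same way, as a daily dose of 5.79 g/kg over 3 days. All tissue was taken on day 3. The sources used here do not give how the haemorrhage was made, the strain, age and sex of the mice, or the time of day at which each brain was taken. Gavage itself was common to all 3 groups, and no sham mouse received the decoction.

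The mammalian clock is a feedback loop of transcription that runs in nearly every cell, neurons and glia included. CLOCK pairs with BMAL1, the product of Arntl, and the pair binds E-box elements to switch on the Per and Cry genes, Nr1d1, Nr1d2, Dbp and Ciart. PER and CRY proteins then return to the nucleus and repress CLOCK and BMAL1, CIART (also called CHRONO) represses the same pair, and the nuclear receptors NR1D1 and NR1D2 (REV-ERB alpha and beta) repress Arntl. DBP activates genes through D-box elements. Transcripts of most of these genes rise and fall over the day, so a single level per mouse depends on the hour of sampling as well as the strength of the loop. In bulk tissue such a level also depends on the cells taken.

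The stretches upstream of 5 members are shown. Of these, 4 carry the letters of elements through which the clock acts on its own genes, and the last belongs to a member that was lower with NYKD and holds none of the letters searched. RefSeq promoter windows (GRCm38.p6, the assembly that mm10 names) of 250 bases before and 50 bases after the annotated start were matched for 9 of the 10 members, in 12 windows. Per2 is the member without a window here. The 250 upstream bases are printed 5′ to 3′ on the strand of the gene, and capitals mark the motifs found. These were searched on both strands: E-box CACGTG, E′-box CACGTT, D-box TTATGTAA or TTACGTAA, and the cyclic AMP element as TGACGTCA or its shorter form TGACGT, which the full element contains. The ROR and REV-ERB response element (RORE) was searched as well.
Ciart (chr3:95882229-95882478, minus strand): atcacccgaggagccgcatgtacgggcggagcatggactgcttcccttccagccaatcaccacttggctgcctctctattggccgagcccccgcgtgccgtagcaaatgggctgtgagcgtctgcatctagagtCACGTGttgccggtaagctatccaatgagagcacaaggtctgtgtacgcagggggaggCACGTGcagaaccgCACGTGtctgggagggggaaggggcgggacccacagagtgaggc
Per1, upstream start (chr11:69098699-69098948, plus strand): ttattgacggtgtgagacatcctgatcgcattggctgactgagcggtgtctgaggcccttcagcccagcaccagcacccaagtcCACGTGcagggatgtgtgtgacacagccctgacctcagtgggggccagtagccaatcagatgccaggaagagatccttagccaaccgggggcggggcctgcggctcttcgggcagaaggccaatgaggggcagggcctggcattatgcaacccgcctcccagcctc
Cry1 (chr10:85185055-85185304, minus strand): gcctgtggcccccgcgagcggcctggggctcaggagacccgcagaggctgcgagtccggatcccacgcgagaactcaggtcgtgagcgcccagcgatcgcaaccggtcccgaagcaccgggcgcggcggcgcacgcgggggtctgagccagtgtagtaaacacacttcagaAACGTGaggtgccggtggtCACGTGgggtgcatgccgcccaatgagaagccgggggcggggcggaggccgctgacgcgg
Per3 (chr4:151044666-151044915, minus strand): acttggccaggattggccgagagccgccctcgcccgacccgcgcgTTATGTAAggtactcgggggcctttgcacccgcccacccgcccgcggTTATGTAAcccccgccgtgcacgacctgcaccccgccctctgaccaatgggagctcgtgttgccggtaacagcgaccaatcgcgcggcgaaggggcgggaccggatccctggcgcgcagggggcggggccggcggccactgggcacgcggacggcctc
Nr1d2 (chr14:18239107-18239356, minus strand): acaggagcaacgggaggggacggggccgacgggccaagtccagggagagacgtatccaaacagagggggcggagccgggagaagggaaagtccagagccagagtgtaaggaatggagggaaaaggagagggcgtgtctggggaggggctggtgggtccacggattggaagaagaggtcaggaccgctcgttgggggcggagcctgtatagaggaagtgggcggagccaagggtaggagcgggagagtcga

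Ciart held 3 copies of the E-box, at positions -116, -58 and -44 from the start, which was the highest number among the members' windows. Per1 had 1 E-box at -166 and Cry1 had 1 at -60, with an E′-box (as AACGTG on the printed strand) at -79. The E-box was present in 3 of the 12 windows of members and in 7.15% of all 32851 windows of this length. Per3 held 2 copies of the D-box, at -205 and -158, an element present in 1.06% of all windows. Cry2 and Nr1d1 each had an E′-box, at -166 and -28, as did 4.68% of all windows. A second Per1 start had a TGACGT element at -132, which 7.51% of all windows hold. No member's window held TGACGTCA (1.79% of all windows) or the RORE (0.219%). The windows of Clock and Dbp, like that of Nr1d2, held none of the letters searched. A match describes the letters of these windows and not a bound site, and clock elements in introns or farther upstream lie outside them.

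**Figure D1:**
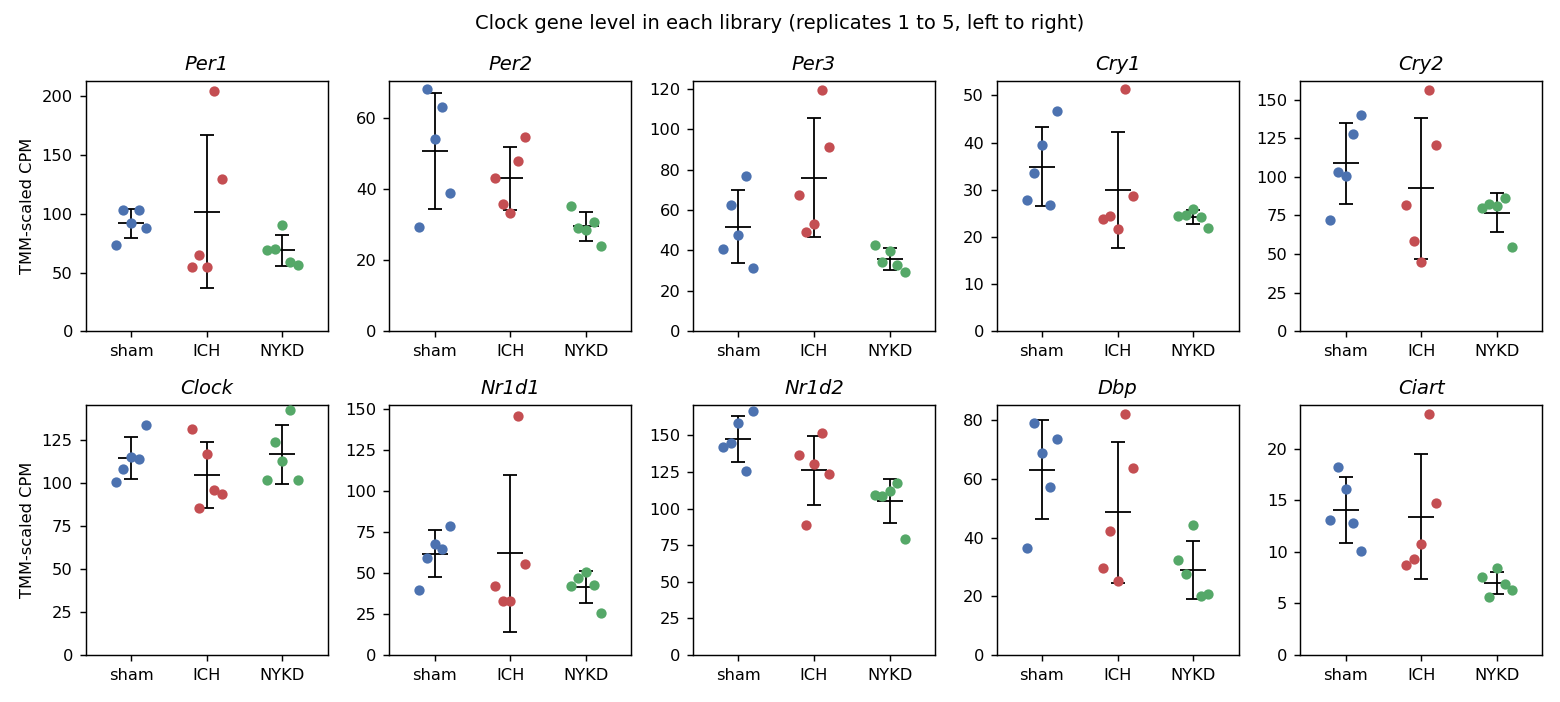
TMM-scaled CPM (y axis, from 0, a separate scale per gene) of the 10 clock genes in each of the 15 libraries. Points are mice, in the order of replicates 1 to 5, and black bars give the mean and SD of 5. Ciart lies between 5.61 and 8.46 CPM in the NYKD mice, below all 5 sham and all 5 ICH mice, and ICH replicate 4 is the highest library for 7 of the 10 genes.

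All 10 members were well measured. Counts per library ran from 91 for Ciart to 2897 for Per1, with library totals of 13539203 to 19909140. Levels are given in CPM, the count of a gene relative to its library's total after TMM scaling, a normalisation that equalises the bulk of genes between libraries. Compared between genes per kilobase of annotated exon, sham mice had most Nr1d2 (27.3 ± 2.90 CPM per kb, mean ± SD, n = 5) and least Per3 (5.39 ± 1.87). In descending order between them stood Dbp (21.1 ± 5.63), Nr1d1 (20.1 ± 4.70), Cry2 (17.2 ± 4.16), Per1 (16.3 ± 2.20), Cry1 (10.5 ± 2.50), Per2 (8.67 ± 2.79), Clock (8.34 ± 0.89) and Ciart (6.22 ± 1.40). Only the steps from Nr1d2 to Dbp, from Per1 to Cry1 and from Clock to Ciart were larger than the larger SD of the neighbours. In NYKD mice Nr1d2 was again the highest (19.5 ± 2.78 CPM per kb), Dbp had rank 5 (9.68 ± 3.31) and Ciart was the lowest (3.09 ± 0.49). The order of the ICH group had no step larger than the SD of its neighbours.

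Haemorrhage alone left no member past the threshold on day 3. In the comparison of ICH with sham, which asks what the bleeding changed, 0 of 10 members were called by edgeR, and 0 by DESeq2 and limma-voom, at an adjusted p under 0.05, while 17.0% of all tested genes were called (12.4% higher and 4.58% lower). A single member, Per3, had an unadjusted p under 0.05, as did 31.1% of all genes. For 0 members did the ICH and sham mice fail to overlap, beside 8.03% of genes with all ICH mice higher and 3.25% with all lower. The members' log2 fold changes ran from -0.38 for Dbp to 0.55 for Per3, with a median of -0.17 beside 0.05 over all tested genes. These estimates depended in part on 1 mouse. Without ICH replicate 4 they were -0.28 for Per1, -0.28 for Per2, 0.33 for Per3, -0.51 for Cry1 and -0.51 for Cry2. The same fit gave -0.10 for Clock, -0.60 for Nr1d1, -0.30 for Nr1d2, -0.65 for Dbp and -0.37 for Ciart. Cry1 was the member called in that fit (adjusted p = 0.0390). The exact permutation test, unadjusted, gave a p under 0.05 for 0 members and for 26.5% of all genes. The coefficient of variation among the 5 ICH mice was above that of sham for 9 of 10 members, and for 7 without ICH replicate 4. It was 64.2% for Per1 (13.5% in sham, 47.2% without that mouse) and 77.3% for Nr1d1 (23.4% in sham, 26.3% without that mouse), while Per2 had 20.4% in ICH and 32.2% in sham. The spread was not tested between groups.

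Per2, Nr1d2, Dbp and Ciart were lower in NYKD than in sham mice. These 4 of 10 members were called lower and 0 higher, beside 8.08% of all tested genes called lower and 15.3% called higher. The members were chosen with earlier results of these data known, so the shares are set beside them as a description. Per2 and Ciart were the 2 calls left without NYKD replicate 5, without the low count filter or under the replicate block, while voom with quality weights called 7. The estimate was below 0 for 9 of the 10, the exception being Clock, with a median log2 fold change of -0.53 beside -0.02 over all tested genes. All 5 NYKD mice lay below all 5 sham mice for 3 members (Cry1, Nr1d2 and Ciart), an arrangement found for 4.84% of tested genes (13.9% in the other direction). By the exact permutation test over the 10 mice of these groups, unadjusted, 8 of 10 members had a p under 0.05, as did 37.9% of all tested genes. These mice differ from sham by both haemorrhage and decoction. Arntl, the partner of Clock, was lower as well, as described below.

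The decoction after haemorrhage is read from NYKD against ICH, and there Per3 was the 1 member called, lower with NYKD, out of 10. Over all genes 3.46% were called in this comparison, 2.27% lower and 1.19% higher, and 1 member of 10 is a count too small to set against those shares. With 1 mouse left out, 4 of 10 fits (without ICH replicate 5 or NYKD replicate 1, 3 or 5) called 0 of all tested genes. Estimates were below 0 for 9 members with a median log2 fold change of -0.55, beside -0.01 over all tested genes, and 4 members had an unadjusted p under 0.05, as did 23.2% of all genes. These estimates depended in part on 1 mouse. Without ICH replicate 4 the log2 fold changes were -0.13 for Per1, -0.49 for Per2, -0.86 for Per3, -0.01 for Cry1 and 0.02 for Cry2. In the same fit they were 0.13 for Clock, 0.03 for Nr1d1, -0.18 for Nr1d2, -0.46 for Dbp and -0.63 for Ciart. Per3 and Ciart were the 2 members whose NYKD mice all lay below all ICH mice, as they did for 5.25% of tested genes (2.55% in the other direction). The exact permutation p was under 0.05 for 3 members and for 21.3% of all genes. The 3 comparisons share groups: each uses mice that another also uses, so their fold changes are not independent of each other.

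**Figure D2:**
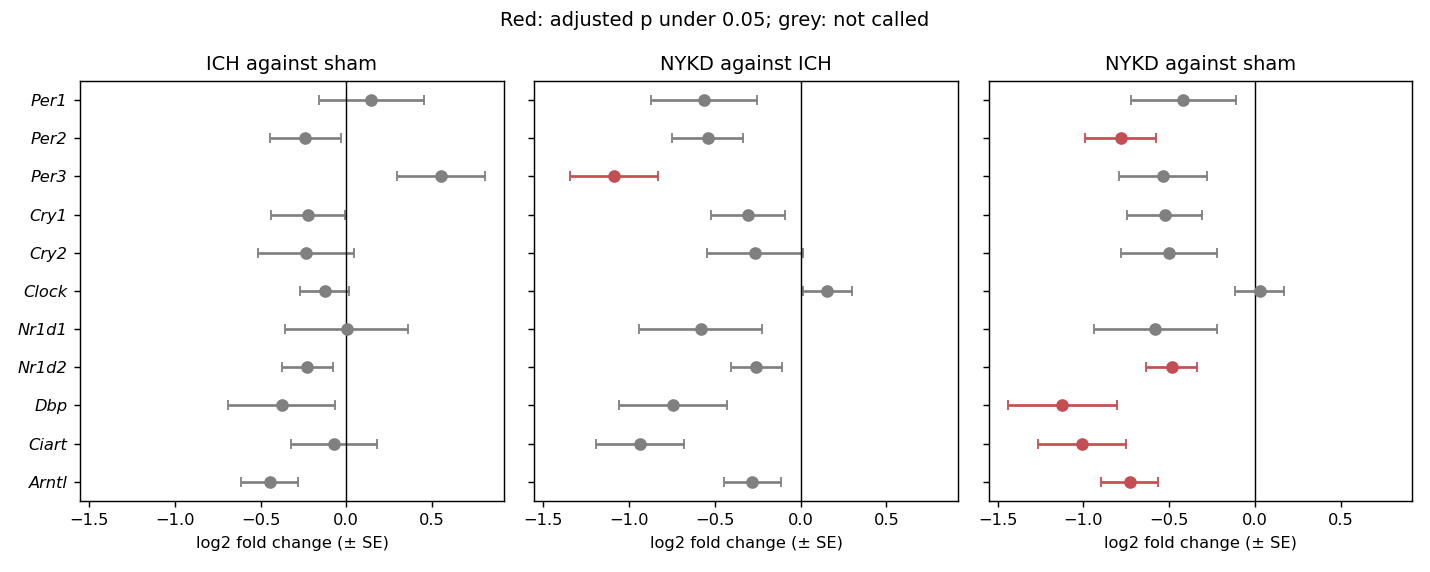
Log2 fold change (x axis) of the 10 members and of Arntl in the 3 comparisons, with bars of 1 standard error and red for an adjusted p under 0.05. Red points lie in the NYKD panels alone: Per3 against ICH, and Per2, Nr1d2, Dbp, Ciart and Arntl against sham.

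Clock, the activator of the loop (ENSMUSG00000029238, chromosome 5, 76209868 to 76304792, minus strand, mm10), averaged 114 ± 12.2 CPM in sham, 105 ± 19.0 in ICH and 117 ± 17.3 in NYKD mice (SD, n = 5 per group). The groups overlapped in each comparison. Its log2 fold change in NYKD against sham was 0.03 ± 0.14 (SE, adjusted p = 0.909), with an approximate 95% interval of -0.25 to 0.31. The estimate had the opposite sign after correction for GC content and transcript length (-0.17, adjusted p = 0.197, the lowest over its alternatives).

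Among the repressors, Per2 (ENSMUSG00000055866, chromosome 1, 91415982 to 91459324, minus strand) was at 29.3, 68.2, 54.2, 63.1 and 38.9 CPM in sham replicates 1 to 5. In ICH mice it was at 43.0, 35.9, 33.4, 47.9 and 54.8 CPM, and in NYKD mice at 35.2, 29.2, 28.5, 30.7 and 24.0 CPM. Sham replicate 1 had a level as low as NYKD mice, while the other 4 sham mice were above all NYKD mice. NYKD against sham gave a log2 fold change of -0.78 ± 0.21 (adjusted p = 0.0124, exact permutation p = 0.0238, two-sided). The call held in all 10 fits that left out 1 library, with an adjusted p of at most 0.0406. Against ICH the log2 fold change was -0.54 ± 0.21 (adjusted p = 0.131), and after GC and length correction -0.72 with an adjusted p of 0.0412, the lowest over its alternatives, which reached up to 0.278.

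Per3 (ENSMUSG00000028957, chromosome 4, 151003652 to 151044665, minus strand), the period paralog that is dispensable for the core rhythm, was at 67.3, 49.1, 53.1, 119 and 91.3 CPM in ICH replicates 1 to 5. NYKD mice had 42.7, 34.5, 39.5, 32.6 and 29.4 CPM, and sham mice 40.8, 62.4, 47.8, 76.8 and 31.3 CPM. Every NYKD mouse was below every ICH mouse, and the sham mice spanned both. NYKD against ICH gave a log2 fold change of -1.09 ± 0.26 (adjusted p = 0.0360). The exact permutation p was 0.00794, the smallest that 5 against 5 can give. The call was kept in 3 of 10 fits with 1 library left out: adjusted p ran from 0.0283 to 0.0943, and it was lost without ICH replicate 4 (0.0778) or 5 (0.0828) or without any 1 of the NYKD mice (0.0605 to 0.0943). The log2 fold change itself stayed between -1.21 and -0.86 in those fits. With the GC and length correction it was -1.26 (adjusted p = 0.0204), and the range over the alternatives that kept every library or dropped 3 was 0.00365 to 0.0748.

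Ciart (ENSMUSG00000038550, chromosome 3, 95878503 to 95882251, minus strand), the gene with 3 E-boxes shown above, was at 13.1, 18.3, 16.1, 12.8 and 10.1 CPM in sham mice. ICH mice had 8.75, 9.30, 10.8, 23.4 and 14.8 CPM, and NYKD mice 7.61, 5.61, 8.46, 6.92 and 6.34 CPM. The NYKD mice formed a narrow range under both other groups, although the highest of them (8.46 CPM) came close to the lowest ICH mouse (8.75 CPM). NYKD against sham gave a log2 fold change of -1.01 ± 0.26, about 0.497 times the sham level (adjusted p = 0.00948, exact permutation p = 0.00794). It was called in all 10 fits with 1 library left out, with an adjusted p of at most 0.0304. Against ICH the log2 fold change was -0.94 ± 0.26 with an adjusted p of 0.0523, just over the threshold, and 5 of 12 alternatives that kept every library or dropped 3 called it (adjusted p from 0.0138 to 0.115). Without ICH replicate 4 it was -0.63 (adjusted p = 0.124), and 1 of the 10 fits with 1 library left out called it.

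Per1, the period gene that also responds quickly to light, neuronal activity and glucocorticoids (ENSMUSG00000020893, chromosome 11, 69095217 to 69109960, plus strand), was at 55.1, 65.3, 54.6, 205 and 130 CPM in ICH replicates 1 to 5. The sham mice lay between 73.2 and 103 CPM and the NYKD mice between 56.0 and 90.2 CPM. Thus 3 ICH mice were below and 2 above every sham mouse. The log2 fold change in ICH against sham was 0.15 ± 0.31 (adjusted p = 0.786), and -0.28 without ICH replicate 4. In NYKD against sham it was -0.42 ± 0.31 (adjusted p = 0.349), where the exact permutation p for the same mice, which does not use the spread of the ICH group, was 0.0238.

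Cry1 (ENSMUSG00000020038, chromosome 10, 85131700 to 85185064, minus strand) and Cry2 (ENSMUSG00000068742, chromosome 2, 92403646 to 92434043, minus strand), the cryptochrome repressors, had no call in the 3 comparisons. Cry1 was at 27.9, 33.6, 39.6, 26.7 and 46.7 CPM in sham and at 24.4, 24.7, 26.0, 24.2 and 21.9 CPM in NYKD mice. These groups did not overlap (log2 fold change -0.53 ± 0.22, adjusted p = 0.0873, exact permutation p = 0.00794). Cry1 was called in 4 of 13 alternatives for that comparison, with adjusted p from 0.00648 to 0.132, and in 0 of 10 fits with 1 library left out (up to 0.182). In ICH against sham Cry1 was called lower without ICH replicate 4 (-0.51, adjusted p = 0.0390), where the other fits with 1 library left out reached up to 0.748. Cry2 averaged 109 ± 26.3 CPM in sham, 92.4 ± 45.9 in ICH and 76.8 ± 12.6 in NYKD mice (NYKD against sham -0.50 ± 0.28, adjusted p = 0.209). Cry2 shares 295 exon bases (4.67% of its exon length) with D930015M05Rik on the other strand, which had a mean of 20.7 counts, so its level is uncertain to that extent.

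The REV-ERB genes differed in their spread. Nr1d2 (ENSMUSG00000021775, chromosome 14, 18204054 to 18239127, minus strand) was at 142, 145, 158, 126 and 167 CPM in sham mice and at 109, 109, 112, 117 and 79.2 CPM in NYKD mice. ICH mice had 137, 88.6, 131, 152 and 124 CPM, overlapping both. All NYKD mice were below all sham mice (log2 fold change -0.49 ± 0.15, adjusted p = 0.0272, exact permutation p = 0.00794). The call was lost without NYKD replicate 5 (-0.40, adjusted p = 0.0839), sham replicate 2 (0.0517) or sham replicate 3 (0.0723), and kept in the other 7 such fits (down to 0.0257). It was also lost without the low count filter (0.0648) and under the replicate block (0.0531), while the remaining 11 of 13 such alternatives called it. Nr1d1 (ENSMUSG00000020889, chromosome 11, 98767932 to 98775333, minus strand) averaged 61.8 ± 14.5 CPM in sham, 62.0 ± 47.9 in ICH and 41.4 ± 9.54 in NYKD mice. In ICH replicate 4 it was at 146 CPM, and the other 4 ICH mice lay at 32.8 to 55.7 CPM. No comparison called it (NYKD against sham -0.58 ± 0.36, adjusted p = 0.257, where 1 of 13 alternatives did at 0.0488). Its ICH against sham estimate was 0.00 ± 0.36 (adjusted p = 0.998), was negative under RLE scaling (-0.03) and other settings, and was -0.60 without ICH replicate 4 (adjusted p = 0.0697). Nr1d1 shares 263 exon bases, 8.55% of its exon length, with Thra on the other strand. Thra had a mean of 6524 counts, against 433 to 2066 counts of Nr1d1 per library. Since the sources used here do not say whether counting used strand, the level of Nr1d1 is uncertain by an amount that was not estimated.

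Dbp, the D-box activator and a widely used readout of clock output (ENSMUSG00000059824, chromosome 7, 45705088 to 45710203, plus strand), was at 36.5, 79.0, 68.8, 57.4 and 73.7 CPM in sham mice. ICH mice had 29.6, 42.1, 25.2, 82.1 and 63.9 CPM, and NYKD mice 32.3, 27.6, 44.2, 19.9 and 20.9 CPM. In NYKD mice it was below every sham mouse except for NYKD replicate 3, which lay above sham replicate 1. NYKD against sham gave a log2 fold change of -1.12 ± 0.32, 0.459 times the sham level (adjusted p = 0.0183, exact permutation p = 0.0159). Without NYKD replicate 5 it was -1.02 (adjusted p = 0.0548), and the other 9 fits with 1 library left out kept the call (down to 0.00934). It was also lost without the low count filter (adjusted p = 0.0539) and under the replicate block (0.0536), while the remaining 11 of 13 such alternatives called it. Against ICH it was -0.75 ± 0.32 (adjusted p = 0.169). Dbp shares 539 exon bases (18.0% of its exon length) with Sphk2 on the other strand, which had a mean of 442 counts, so the level of Dbp is uncertain in the same way.

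**Figure D3:**
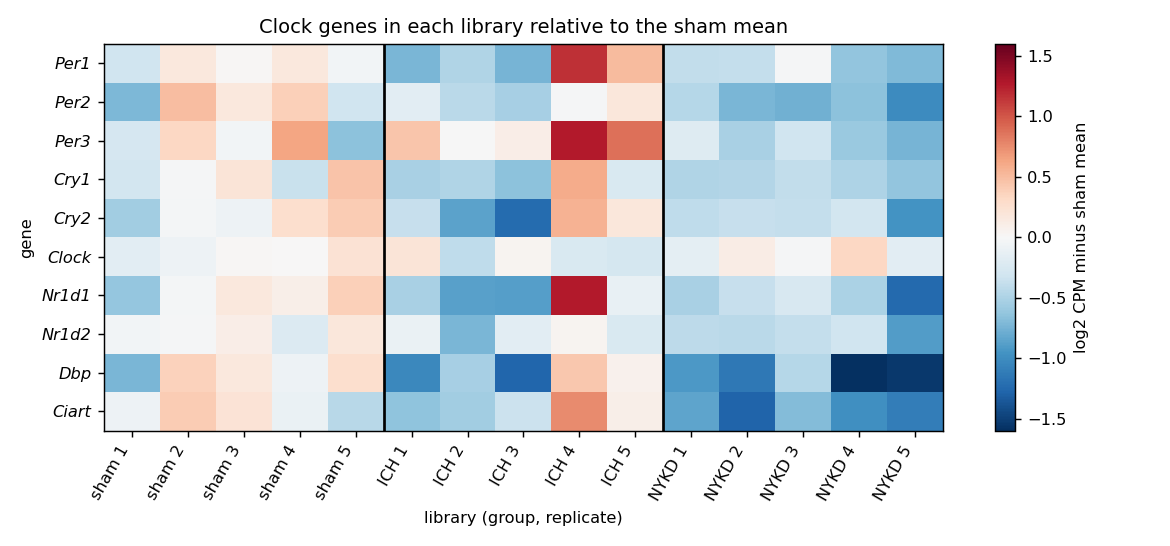
Log2 CPM of each member (rows) in each library (columns) minus the mean of the 5 sham mice, blue for lower and red for higher. NYKD replicate 5 has the lowest median over the members (-0.92) and ICH replicate 4 the highest (0.57).

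Seen mouse by mouse, many of the members moved together, with exceptions in single mice. The median over the 10 members of log2 CPM minus the sham mean was -0.44, -0.45, -0.39, -0.55 and -0.92 in NYKD replicates 1 to 5. ICH replicates 1, 2 and 3 had -0.44, -0.51 and -0.59, within the NYKD range, while ICH replicate 4 had 0.57 and ICH replicate 5 had 0.08. Sham replicate 1 had -0.30, with all 10 members under the sham mean, and the other 4 sham mice had 0.05 to 0.21. ICH replicate 4 was the highest of all 15 libraries for 7 members and NYKD replicate 5 the lowest for 4. The medians hide opposite moves. In sham replicate 5 Per3 was at -0.66 and Ciart at -0.44, beside Cry1 at 0.45 and Cry2 at 0.40. Per3 was at 0.45, -0.01 and 0.10 in ICH replicates 1, 2 and 3.

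Part of this pattern was present within the groups. After subtraction of group means, 39 of 45 pairs of members had a positive Pearson r over the 15 libraries, with a median of 0.57 (0.47 without the 2 libraries farthest from the median of the first gene, 0.45 without ICH replicate 4). With permutation within groups and adjustment over 55 pairs, 15 pairs of members passed by Pearson's r and 9 by Spearman's rho as well. Pairs of other tested genes were not examined in this way, so these counts do not set the members apart. Per1 and Dbp had r = 0.88 (adjusted permutation p = 0.00220) and rho = 0.85 (adjusted permutation p = 0.00904), and r = 0.83 without the 2 farthest libraries. Cry2 and Nr1d1 had r = 0.90 (adjusted permutation p = 0.00330) and rho = 0.80 (adjusted permutation p = 0.00904), and r = 0.86 without the 2 farthest. Per2 and Per3 had r = 0.77 (adjusted permutation p = 0.0281) and rho = 0.85 (adjusted permutation p = 0.00904), and r = 0.86 without the 2 farthest. Clock stood aside, with r from -0.39 with Ciart to 0.57 with Nr1d2 and no pair past the threshold. Arntl, whose rhythm opposes that of Dbp and the Per genes in tissues sampled around the day, had a positive r with all 10 members. The highest was 0.64 with Cry2 (adjusted permutation p = 0.0106, rho = 0.76, adjusted permutation p = 0.00904, r = 0.77 without the 2 farthest).

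**Figure D4:**
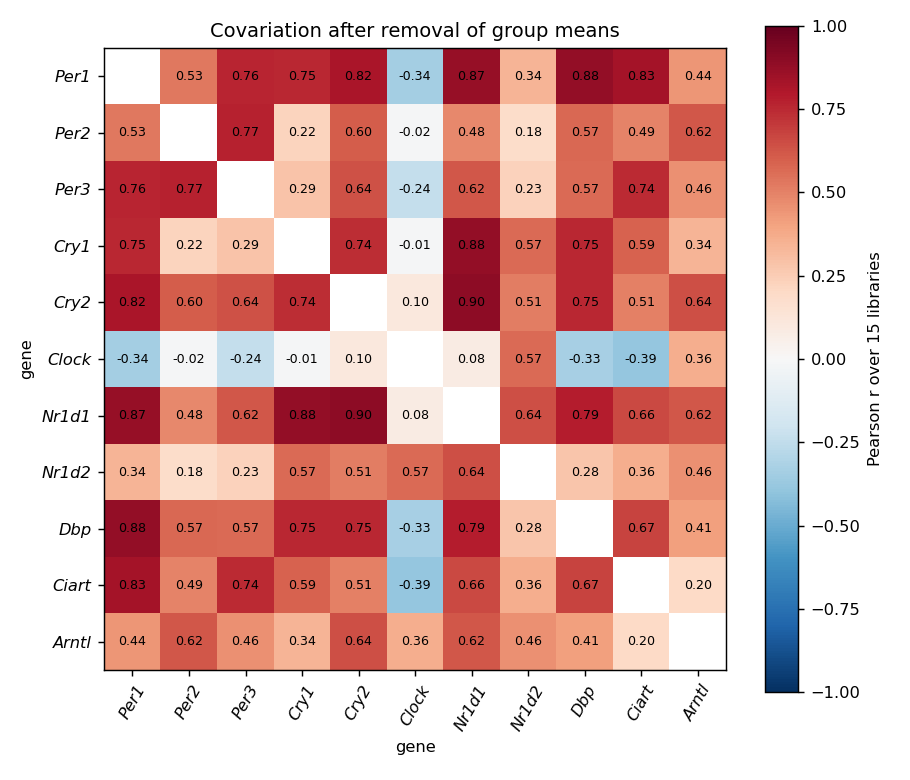
Pearson r over 15 libraries for each pair of the 10 members and Arntl (both axes), after subtraction of group means, printed in each cell. Red is positive: 39 of the 45 pairs of members are, and the other 6 are all pairs with Clock.

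Tissue content and base composition differed among the same mice. The summed level of 8 markers of striatal projection neurons, the main neurons of the region, all of them detected in every library, ran from 763 to 4759 CPM in sham, from 601 to 3721 in ICH and from 129 to 1638 in NYKD mice. It was lowest in sham replicate 1 among sham mice and in NYKD replicate 5 among NYKD mice, and highest in ICH replicates 4 and 5 (3721 and 2769 CPM, against 601 to 1049 in the other 3). In NYKD against sham 5 of the 8 were called lower, with a median log2 fold change of -2.16, beside 8.08% of all tested genes called lower. In ICH against sham 0 of the 8 were called (median -1.04), beside 4.58% of all tested genes called lower. NYKD against ICH also called 0 of the 8 (median -1.11), beside 2.27% of all tested genes called lower. Fewer cells of a type, less RNA per cell and the piece of tissue taken cannot be told apart in these bulk libraries. Cortical and thalamic neuron markers summed to 290 to 899 CPM in sham, 223 to 614 in ICH and 387 to 1029 in NYKD mice. They were highest in sham replicate 1 and NYKD replicate 4 of those groups, where the striatal sums were 763 and 194 CPM. NYKD replicate 5 had the lowest sum of both in its group. General neuron markers summed to 3036 to 3941, 2103 to 2408 and 1691 to 3965 CPM. Within groups, 9 of 10 members had a positive r with the log2 of the striatal sum. Adjusted over 20 relations with library measures, 6 passed by Pearson's r and 5 by rho as well, with Dbp at r = 0.85 (adjusted permutation p = 0.00260), rho = 0.84 (adjusted permutation p = 0.00407) and r = 0.83 without the 2 farthest libraries. These relations were chosen after the data were seen, and their part in the group differences was not tested. Astrocyte markers (6 of 6 detected in each group) summed to 3808 to 5781 CPM in sham, 4399 to 7705 in ICH and 7328 to 9081 in NYKD mice. Microglia markers (5 of 5) summed to 441 to 580, 495 to 1133 and 867 to 1538 CPM. Monocyte and macrophage markers, 3 of 5 detected throughout sham and 5 of 5 in the other groups, summed to 12.2 to 169 CPM in sham, 261 to 1268 in ICH and 677 to 1675 in NYKD mice, the highest in NYKD replicate 5. Of these, 4 could be tested, and 4 were higher against sham in both haemorrhage groups. Among all tested genes, 12.4% were called higher in ICH and 15.3% in NYKD against sham. Neutrophil markers, 5 of 6 detected throughout each group, summed to 524 CPM in ICH replicate 4 and to at most 53.7 CPM in any other library. Choroid plexus markers ranged from 11.8 to 5833 CPM over the ICH mice alone. Markers of the suprachiasmatic nucleus, the master clock of the hypothalamus, summed to at most 81.5 CPM.

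The slope of a library's log2 CPM deviations over transcript GC content, per 10 percentage points of GC, ran from -0.31 in ICH replicate 1 and -0.28 in ICH replicate 3 to 0.17 in ICH replicate 4. Members differ in GC content, from 40.9% in Clock and 41.8% in Nr1d2 to 59.4% in Per1 and 61.6% in Dbp. Within groups Dbp had r = 0.77 with this slope (adjusted permutation p = 0.0334, rho = 0.78, adjusted permutation p = 0.0232, r = 0.66 without the 2 farthest). Clock had r = -0.76 (adjusted permutation p = 0.0334, rho = -0.68, adjusted permutation p = 0.0771, r = -0.64 without the 2 farthest). Once GC content and length were corrected for, the 4 calls of NYKD against sham were kept, with log2 fold changes of -0.98 for Per2, -0.67 for Nr1d2, -0.97 for Dbp and -1.10 for Ciart. Left out together, ICH replicates 1 and 3 and NYKD replicate 4, the 3 libraries with the lowest slopes, also left those 4 calls, with log2 fold changes between -1.01 (Dbp) and -0.52 (Nr1d2).

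Of the other genes of the loop, 11 were listed and 11 tested. In ICH against sham 3 were higher and 0 lower, in NYKD against sham 2 were higher and 1 lower, and in NYKD against ICH 0 were called (0 by limma-voom, and 1 lower by DESeq2, over these and the turnover genes below). Over all tested genes the shares were 12.4% higher and 4.58% lower in ICH against sham, and 15.3% and 8.08% in NYKD against sham, and counts among so few genes are given as a description. Nfil3, the repressor that competes with DBP for D-boxes, rose from 7.43 CPM in sham to 14.8 in ICH (log2 fold change 0.99 ± 0.22, adjusted p = 0.00529), with no overlap between the groups, and was at 15.7 CPM with NYKD (1.08 ± 0.22 against sham, adjusted p = 0.00224). Bhlhe40, which encodes the E-box repressor DEC1, rose by 0.69 ± 0.17 in ICH against sham (adjusted p = 0.00973) and by 0.71 ± 0.17 in NYKD against sham (adjusted p = 0.00596). Its relative Bhlhe41 rose by 0.40 ± 0.13 after ICH (adjusted p = 0.0433) and was at 0.27 ± 0.13 in NYKD against sham (adjusted p = 0.139).

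Arntl (ENSMUSG00000055116, chromosome 7, 113207465 to 113314126, plus strand) was at 23.7, 32.7, 31.1, 38.3 and 33.5 CPM in sham mice, at 21.2, 21.1, 22.8, 26.6 and 25.1 CPM in ICH mice and at 19.4, 24.1, 17.6, 21.9 and 13.0 CPM in NYKD mice. Sham replicate 1 lay among the ICH and NYKD mice and the other 4 sham mice above them all. It fell in NYKD against sham by 0.73 on the log2 scale (SE 0.17, adjusted p = 0.00445), a call kept in all 10 fits with 1 library left out. In ICH against sham it was at -0.45 ± 0.16 (adjusted p = 0.0716), and 3 of 12 alternatives called it (adjusted p from 0.0123 to 0.217).

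**Figure D5:**
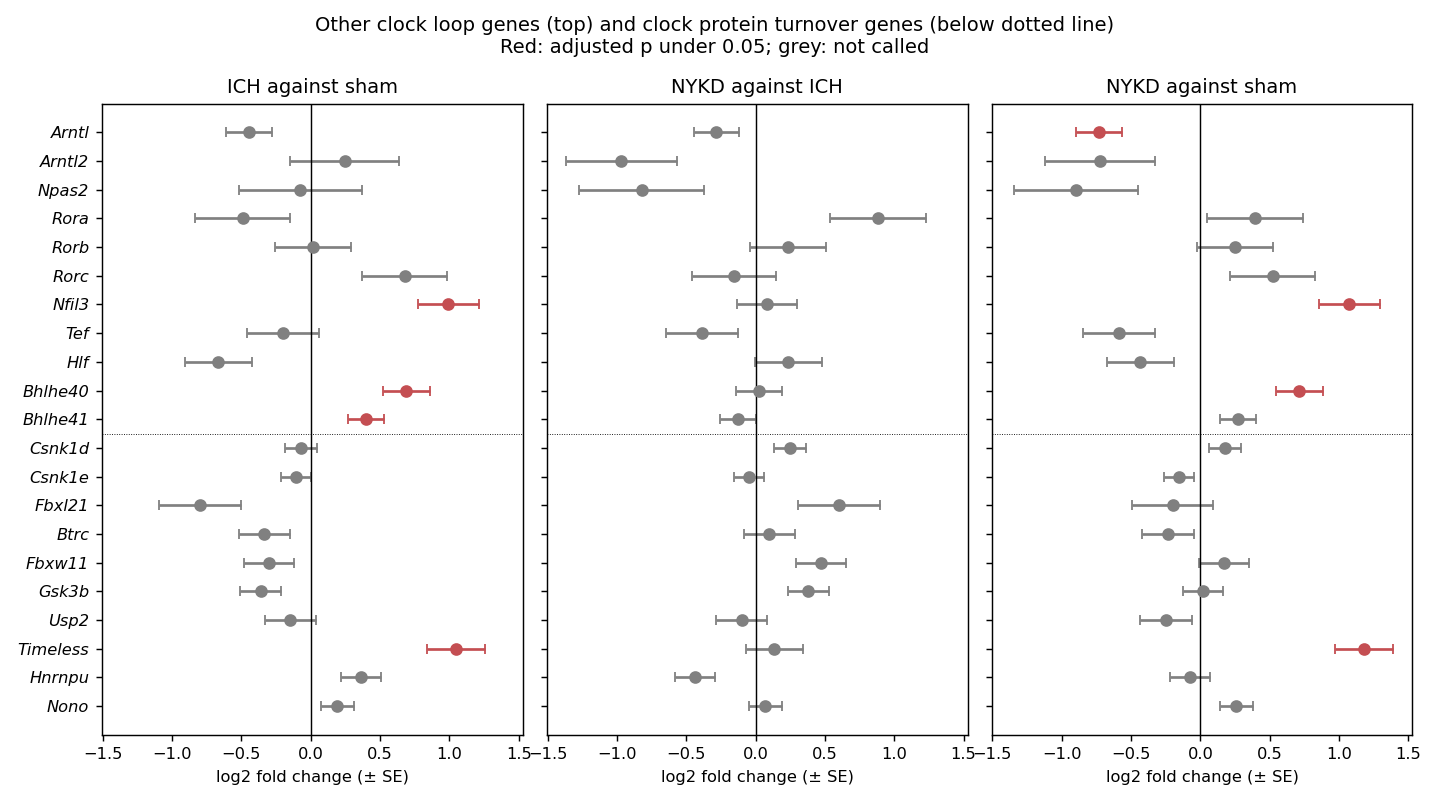
Log2 fold change (x axis, bars of 1 standard error) of the 11 other loop genes and 10 of the clock protein turnover genes in the 3 comparisons, red for an adjusted p under 0.05. Nfil3, Bhlhe40 and Timeless are higher against sham in both haemorrhage groups, and Arntl is lower in NYKD against sham.

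A list of 11 genes was made for the modification and turnover of clock proteins, such as the casein kinase genes Csnk1d and Csnk1e. It also holds genes without that role, such as Timeless and Hnrnpu. Of the 11, 1 was higher in each comparison with sham and 0 were lower, beside the same shares of all genes (12.4% and 15.3% higher). It was Timeless, a replication fork gene linked to the clock mainly through its fly namesake (1.05 ± 0.21 in ICH, adjusted p = 0.00260, and 1.18 ± 0.21 in NYKD mice, adjusted p = 0.000676). Hnrnpu, an RNA-binding protein gene, was at 0.36 ± 0.15 in ICH against sham (adjusted p = 0.0993) and at -0.44 ± 0.15 in NYKD against ICH (adjusted p = 0.0892). Fbxl21, an F-box protein gene, was at -0.80 ± 0.30 in ICH against sham (adjusted p = 0.0726).

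The 2 further lists hold genes of signals that act on Per1, and their counts stand beside the same shares of all genes. These were 12.4% higher and 4.58% lower in ICH against sham, and 15.3% and 8.08% in NYKD against sham. In NYKD against ICH the shares were 1.19% higher and 2.27% lower. Of 12 genes responsive to or mediating glucocorticoids, 2 were higher in ICH against sham (Mertk, 0.61 ± 0.20, adjusted p = 0.0499, and Pdk4, 0.58 ± 0.19, adjusted p = 0.0484), 0 were called in NYKD against ICH, and Mertk was higher in NYKD against sham (0.88 ± 0.20, adjusted p = 0.00559). Mertk is also a phagocyte receptor and Pdk4 a metabolic kinase. Nr3c1, the glucocorticoid receptor, was at 0.46 ± 0.14 in NYKD against ICH (adjusted p = 0.0688). Nfkbia, an inhibitor of NF-kB, was at 1.08 ± 0.37 in ICH against sham (adjusted p = 0.0547). It stood at 229 CPM in ICH replicate 4, at 39.9 to 68.8 CPM in the other 4 ICH mice and at 33.9 to 50.7 CPM in sham.

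Of 12 genes of the activity and CREB response, 1 rose and 1 fell in ICH against sham, 1 fell in NYKD against ICH, and 1 rose and 3 fell in NYKD against sham. Npas4, a neuronal activity factor, was lower in NYKD than in ICH mice (-1.26 ± 0.31, adjusted p = 0.0396) and than in sham mice (-2.01 ± 0.31, adjusted p = 0.000237). Arc, a synaptic immediate early gene, was lower than sham in both haemorrhage groups (-1.81 ± 0.30 in ICH, adjusted p = 0.000852, and -1.55 ± 0.30 in NYKD mice, adjusted p = 0.00158). Fos rose in both (1.07 ± 0.20, adjusted p = 0.00191, and 0.76 ± 0.20, adjusted p = 0.0126). Nr4a1 was at 25.2, 54.2, 50.9, 52.3 and 64.8 CPM in sham, 17.3, 14.9, 12.2, 53.6 and 26.4 CPM in ICH and 17.4, 18.4, 16.5, 18.0 and 10.6 CPM in NYKD mice. It was lower in NYKD against sham (-1.61 ± 0.35, adjusted p = 0.00396), and the same mice that were low in sham and high in ICH for the clock genes, sham replicate 1 and ICH replicate 4, were low and high for it.

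For each member, the gene with the most similar pattern was found among 13015 tested genes that averaged 50 counts or more, as the highest r over the 15 libraries after subtraction of group means. These values were picked as the highest and carry no test. For Nr1d1 it was Nr4a1 (r = 0.96, and 0.93 without ICH replicate 4), and for Dbp it was Dact2 (r = 0.96). For Per1, Per2 and Per3 they were Gba2 (r = 0.97), Ryr1 (r = 0.90) and Atp8b2 (r = 0.96). For Cry1 it was Prpf18 (r = 0.94, falling to 0.84 without ICH replicate 4), for Cry2 Sptb (r = 0.98), for Clock Capza2 (r = 0.96), for Nr1d2 Gabra4 (r = 0.90), and for Ciart Abcc8 (r = 0.91, and 0.83 without ICH replicate 4). No member was the nearest gene of another member.

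Of the libraries as a whole, raised genes were 73.0% of the calls in ICH against sham with TMM scaling, 64.2% with RLE factors and 83.4% when scaled by totals, and 34.4%, 41.3% and 20.1% in NYKD against ICH. No scaling moved the median of all genes by more than 0.095 on the log2 scale or turned the direction of a called member.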

How the data were processed

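Per the labels, the authors extracted RNA with Trizol and made poly-A libraries. The deposited table holds raw counts per Ensembl gene, 1 column per mouse. The submitters' processing notes list HISAT2 2.0.5, edgeR 3.22.5 and the build mm10, with no step named for each. The sources used here do not give the counting program, annotation release or strand setting. Symbols (99.77% of genes), positions, exon lengths and GC content came from GENCODE M21 (GRCm38).

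Groups came from the sample titles. The labels do not say more of the mice than 1 library each. filterByExpr on the group kept 18052 of 54532 genes (18725 had no count). One edgeR 4.0.16 model (R 4.3.3) with TMM scaling, a coefficient per group, no covariate and robust dispersions was fitted to all 15 libraries, and each comparison was tested by the quasi-likelihood F-test, with Benjamini-Hochberg adjusted p values over all tested genes and a threshold of 0.05. Standard errors are the absolute log2 fold change divided by root F, and 95% intervals are 1.96 standard errors, so both are approximate. Log2 CPM carries a prior count of 2. Exact permutation tests are two-sided, unadjusted and on log2 CPM; correlations used 100000 permutations within groups (Python 3.11.15, scipy 1.17.1). The fit was tested on simulated data. The 10 members were given by symbol, and the members and gene lists were chosen with earlier results of these data known. Named genes were all members, Arntl, up to 4 genes with the smallest p per pathway list, and the most similar gene per member (highest r among named genes averaging 50 counts or more), and 1 pathway gene is not reported here. Alternatives included DESeq2 1.42.0 and limma 3.58.1 (voom), other scalings and filters, a spline correction (5 degrees of freedom) for GC content and length, a replicate block, and the omission of each library. The omission of the 3 libraries of lowest GC slope, and of ICH replicate 4 from the fit behind NYKD against sham, was chosen after seeing the data.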

Additional observations from a re-analysis of the deposited data

Results flagged for a closer look

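In 33 sets of 5 mice (the 10 members and Arntl in 3 groups), a mouse stood far from the others of its group in 4, where chance gives about 1 in 20 for a single set. The sets reuse the same mice and the members covary, so they are not independent of each other. ICH replicate 4 was far above the other ICH mice for Cry1 (51.4 CPM, the next at 28.7) and for Nr1d1 (146 CPM, the next at 55.7). NYKD replicate 5 was far below the other NYKD mice for Cry2 (54.7 CPM, the next at 79.8) and for Nr1d2 (79.2 CPM, the next at 109). ICH replicate 4 also had the highest neutrophil marker sum, and NYKD replicate 5 the lowest sum of striatal projection neuron markers (129 CPM). The part of these in the clock gene levels was not tested.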

How the results depend on the processing

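In ICH against sham, 0 members were called under any scaling, filter or test, and 0 to 1 with 1 library left out (Cry1, without ICH replicate 4). Over all genes, 2236 were called higher (1623 to 2326 with 1 library left out) and 826 lower (496 to 944), the latter 532 with library totals, 1556 with DESeq2 and 2362 with GC and length correction. Of the 22 other loop and turnover genes, 4 were called higher (3 to 4 with 1 library left out) and 0 lower (0 to 2). The lower count was 1 with RLE factors, 1 in the fit of 2 groups alone, 1 without the 3 libraries of lowest GC slope, 4 with DESeq2 and 5 with GC and length correction.

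In NYKD against ICH the calls depended on single mice. The 1 member called lower became 2 with library totals, the 1 CPM filter, DESeq2, voom with quality weights, GC and length correction, and without the 3 libraries of lowest GC slope (Per3 with Ciart or Per2). It was 0 to 2 with 1 library left out. Over all genes, 215 higher calls ranged from 0 to 725 with 1 library left out, and were 117 with library totals, 809 with DESeq2, 573 with voom and quality weights, 142 in the fit of 2 groups alone and 641 without the 3 libraries of lowest GC slope. The 410 lower calls ranged from 0 to 783, and were 1024 with DESeq2, 203 with voom and 770 with voom and quality weights. Without ICH replicate 5 or NYKD replicate 1, 3 or 5 edgeR called 0 genes, with 3499 to 3866 genes at an unadjusted p under 0.05. Of the other loop and turnover genes, 0 were called higher (0 to 1 with 1 library left out, 1 without the 3 libraries of lowest GC slope) and 0 lower (0 to 0), 1 with DESeq2, with voom and quality weights and in the fit of 2 groups.

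In NYKD against sham the 4 members called lower were 2 to 5 with 1 library left out, 2 without the low count filter, 7 with voom and quality weights and 6 with GC and length correction. Over all genes, 2766 were called higher (2131 to 2666 with 1 library left out, 4449 with voom and quality weights) and 1459 lower (679 to 1999, 912 without the low count filter, 3718 with voom and quality weights, 3070 with GC and length correction). Other loop and turnover genes called higher were 3 (3 to 3), and 6 with voom and quality weights. Those called lower were 1 (1 to 2), 2 with RLE factors, library totals, the 1 CPM filter, DESeq2 or 2 groups alone, and 4 with voom and quality weights or GC and length correction. In all 3 comparisons 0 members were called higher under each setting.

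With the replicate number as a block, NYKD against ICH had 0 genes higher and 0 lower (3602 genes at an unadjusted p under 0.05) and 0 members called, Per3 at an adjusted p of 0.0748. NYKD against sham then had 872 genes and 2 members lower, with Nr1d2 at 0.0531 and Dbp at 0.0536. Libraries of the same number had correlations of -0.314 to 0.244 in their deviations from group means, 4 of 15 above 0.1, and 3 of 15 libraries correlated best with their own number, so the numbers were not treated as pairing.

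The direction of 26 member values differed from the reported one, none of them called (lowest adjusted p 0.0697). For ICH against sham, Nr1d1 (0.00) was at -0.031 with RLE factors, -0.017 without the filter, -0.030 with DESeq2, -0.22 with voom, -0.36 with voom and quality weights, -0.0014 in 2 groups alone, -0.17 under the replicate block, -0.14 with GC and length correction, and -0.60 to 0.16 with 1 library left out. Per1 was at -0.055 with voom, -0.10 with voom and quality weights, and -0.28 to 0.30 with 1 library left out. Ciart was at 0.011 with library totals, 0.17 without the 3 libraries of lowest GC slope, and -0.37 to 0.047 with 1 left out, and Cry2 was at 0.039 without those 3. For NYKD against ICH with 1 library left out, Cry2 ran from -0.43 to 0.020 and Nr1d1 from -0.74 to 0.025. For NYKD against sham, Clock was at -0.17 with GC and length correction, -0.050 without the 3 libraries, and -0.047 to 0.076 with 1 left out. The causes were not tested. Of the other member values, 612 kept direction and side of the threshold, 16 lost a call and 16 gained one. Exact permutation p under 0.05 was found for 0, 3 and 8 members in the 3 comparisons (26.5%, 21.3% and 37.9% of all genes), with RLE factors and library totals as well, and 39 of 45 pairs of members had a positive r without the 2 farthest libraries (40 without ICH replicate 4). Totals of 13539203 to 19909140 counts left each member at 91 counts or more in each library.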
